A study of Mus musculus with 6 samples.

Results

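The MHC class I presentation genes followed here are 10 of the 27458 genes in the deposited table, taken by gene name: the heavy chains H2-K1, H2-D1 and H2-T23, the light chain B2m, the transporter genes Tap1 and Tap2, Tapbp, the immunoproteasome genes Psmb8 and Psmb9, and Nlrc5. RNA was sequenced from primary bone marrow macrophages of mice, all treated with macrophage colony-stimulating factor (M-CSF), a growth factor on which macrophages depend. There were 3 libraries from RKIP+/+ mice (WT) and 3 from RKIP-/- mice (KO), in a study of how RKIP, the Raf kinase inhibitor protein encoded by Pebp1, takes part in macrophage differentiation. The strain, age and sex of the mice and the length of the M-CSF treatment are not given in the sources used here. Nothing in the labels ties the libraries of a group to separate mice or cultures. The p-values therefore reflect how far these libraries vary, which could be technical variation alone.

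MHC class I molecules carry peptides from the inside of a cell to its surface, where CD8 T cells and natural killer cells read them. Proteasomes cut proteins into peptides, the TAP transporter pumps the peptides into the endoplasmic reticulum, and the peptide loading complex fits them into a heavy chain paired with beta-2 microglobulin. Macrophages express the pathway at rest and raise it in response to interferon.

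Pebp1 was measured at 39.2, 33.2 and 39.0 FPKM (fragments scaled to transcript length and library size) in the WT libraries and had a count of 0 in every KO library. The genotype labels and the Pebp1 values therefore matched in all 6 libraries. Libraries held 53188659 to 70059042 estimated counts, with higher totals in the KO group. The 10 macrophage markers were all detected and summed to 20911 to 22380 FPKM in WT and 19111 to 19395 FPKM in KO. Neutrophil markers summed to 86.1 to 173 FPKM in WT and 16.8 to 17.5 FPKM in KO. Of 9 tested, 8 were called lower in the edgeR test given below, against 19.4% of all tested genes. T and NK cell markers summed to at most 0.688 FPKM in any library. Dendritic cell markers, mostly Itgax, summed to 4.97 to 5.04 FPKM in WT and 7.00 to 7.65 FPKM in KO, and B cell markers, mostly Ebf1, to 3.59 to 4.27 and 5.00 to 5.13 FPKM. Erythroid and megakaryocyte markers summed to at most 1.15 FPKM. Stromal and endothelial markers summed to 720 to 813 FPKM in WT and 699.7 to 810.1 FPKM in KO, nearly all of it Col1a1 and Col1a2. The endothelial markers Cdh5, Pecam1, Kdr and Emcn, below the level tested, stood at 49.4, 48.4, 70.7 and 63.0% of their WT means in KO and Lepr, also below it, at 171%, each with no overlap between the groups. Among tested genes, 19.1% had every KO value below every WT value and 32.4% every KO value above. No such share was computed for genes below the level tested. Whether other cells take part in the class I values was not tested. In RNA of a whole culture, fewer cells of a type and less RNA per cell cannot be told apart.

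In KO macrophages the immunoproteasome genes, Tap2 and the heavy chains H2-T23 and H2-K1 were lower, each by a small factor. Of the 10 genes, 5 fell in KO and none rose in the edgeR quasi-likelihood test, at an adjusted p of 0.05 over the 11636 genes tested. These 5 were Psmb8, Psmb9, Tap2, H2-T23 and H2-K1, and their falls lay between 1.12-fold and 1.31-fold. The log2 estimate was below 0 for all 10 genes, so none was higher at an unadjusted p under 0.05 either. DESeq2 called 5 lower and 0 higher and limma 2 lower and 0 higher, while an edgeR fit with an offset for transcript length and GC content called 4 lower and 2 higher (H2-D1 and B2m). Among all tested genes 19.4% were called lower and 20.3% were called higher. The median log2 fold change (KO over WT) of the 10 genes was -0.17, against -0.01 for all tested genes. Together the 10 genes took 0.468, 0.431 and 0.458% of the counts of tested genes, scaled by TMM (edgeR's scaling between libraries), in the WT libraries and 0.436, 0.432 and 0.413% in the KO libraries. WT replicates 1 and 3 were the highest, and WT replicate 2 lay among the KO libraries, so the groups overlapped.

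Levels differed far more between the genes than between the genotypes. B2m had the highest mean over the 6 libraries at 1046 FPKM, a value per length, followed by H2-D1 at 750.1 FPKM and H2-K1 at 204 FPKM. Tapbp at 64.4 FPKM and H2-T23 at 42.2 FPKM came next. Psmb8 at 16.1, Tap2 at 11.8, Tap1 at 8.75, Psmb9 at 4.22 and Nlrc5 at 3.75 FPKM were the scarcest. Each gene lay above the next in the order in all 6 libraries, and only the ranges of Psmb9 and Nlrc5 overlapped.

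**Figure D1:**
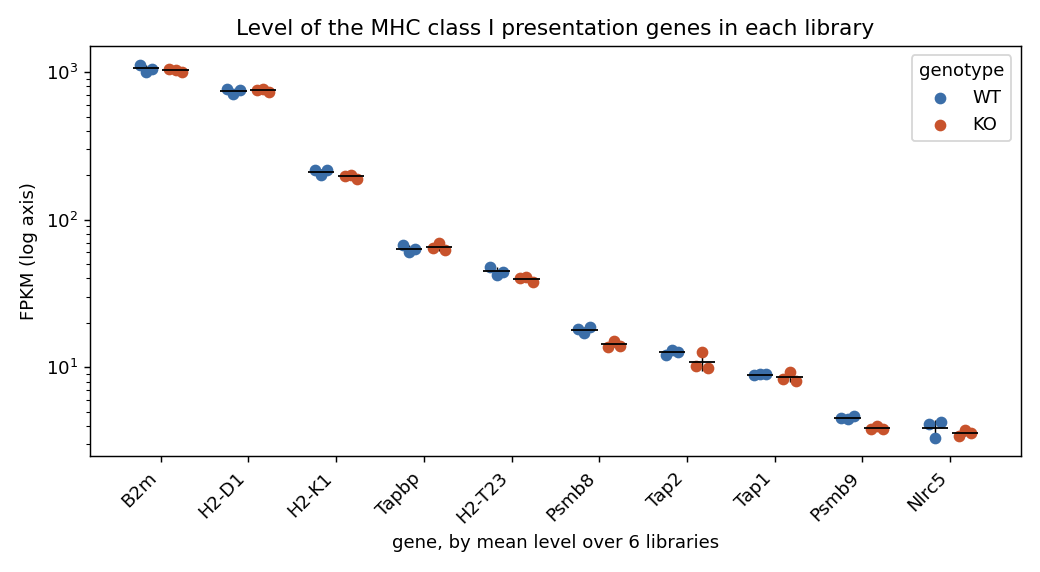
Level of each gene in FPKM (log axis) in the 3 WT and 3 KO libraries. Points are libraries, short bars are group means and vertical lines are SD. The order runs from B2m at a mean of 1046 FPKM to Nlrc5 at 3.75 FPKM, and the genotypes lie close together at each gene.

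The upstream sequence of H2-K1 is shown because class I promoters are known for a set of shared DNA elements. These are enhancer A, which binds NF-kB, the interferon-stimulated response element, and the SXY module, the part through which Nlrc5 and the RFX, CREB and NF-Y factors act. The stretch covers the 250 bases before the RefSeq start site on GRCm38.p6, chr17:34000348-34000597 on the minus strand, 5′ to 3′, and holds no annotated exon. Capitals mark the kappa B sequence GGGGATTCC, then TGACG (the core of a cAMP response element) and ATTGG (the reverse of the Y box CCAAT).

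H2-K1: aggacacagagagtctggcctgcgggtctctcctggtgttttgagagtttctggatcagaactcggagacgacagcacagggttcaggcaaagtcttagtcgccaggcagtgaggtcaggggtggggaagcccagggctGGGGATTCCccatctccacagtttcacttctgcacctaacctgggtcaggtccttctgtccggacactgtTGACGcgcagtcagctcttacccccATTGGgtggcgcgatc

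The stretch before B2m, chr2:122147437-122147685 on the plus strand, holds another set of matches. In both stretches only exact matches to the searched letters are marked, so an element with other letters could be present unmarked. In B2m the first capitals mark a match to GAAANNGAAA, the core of the interferon-stimulated response element. The later ones mark TGACG and ATTGG as in H2-K1.

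B2m: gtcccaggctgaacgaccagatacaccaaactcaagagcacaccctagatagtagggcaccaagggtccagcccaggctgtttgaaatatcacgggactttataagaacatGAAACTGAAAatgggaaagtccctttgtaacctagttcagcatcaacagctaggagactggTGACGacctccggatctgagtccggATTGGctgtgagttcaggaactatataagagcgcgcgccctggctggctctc

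The pair TGACG and ATTGG, with 20 bases between them, was found in the promoter windows of 3 of the 8 class I genes that have one in the RefSeq table (250 bases before to 50 after the start). It is shown for these 3 genes because the spacing is the feature they share. The stretches lie at chr17:34000359-34000388 on the minus strand for H2-K1, chr17:35262993-35263022 on the plus strand for H2-D1 and chr2:122147609-122147638 on the plus strand for B2m. The H2-D1 stretch lies inside the deposited span of that gene, which starts at 35262730. Annotated exons cover all bases before the RefSeq start in the windows of H2-D1, Psmb8, Psmb9, Tap1 and Tapbp.
H2-K1: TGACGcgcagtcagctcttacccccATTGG
H2-D1: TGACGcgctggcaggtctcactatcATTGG
B2m: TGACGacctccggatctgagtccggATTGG

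H2-K1 and H2-D1 had the same base at 23 of these 30 positions, while B2m matched H2-K1 at 13 and H2-D1 at 12, of which 10 are the searched letters. The spaced pair was present in 31 of 32851 RefSeq windows (0.094%) and in 23 of the 10891 windows of tested genes (0.211%). The spacing searched for is that of the class I stretches shown, so these shares are a description and not a test. H2-M3, a class I-like heavy chain outside the 10 genes, also held it. Searched on both strands, GGGGATTCC was found in H2-K1 and H2-D1 and in 0.25% of all windows. GAAANNGAAA was found in B2m and H2-T23 and in 3.44% of windows. TTCNNNGAA, the STAT site called GAS, was found in Psmb8 and in 8.30% of windows. CCAAT was present in 7 of the 8 genes and 37.41% of windows, and TGACG in 5 of 8 genes, 20.81% of all windows and 31.82% of the windows of tested genes. Tap1 and Psmb9 share 1 CCAAT site and 1 TGACG site, counted for both genes. A match describes letters in the window and shows no binding, and the lack of a match does not show that an element is absent.

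The RefSeq start sites of Tap1 and Psmb9 lie 226 bases apart on opposite strands of chromosome 17, so their promoter windows share 275 bases. Both genes, with Psmb8 and Tap2, sit within one cluster of the MHC class II region. In the deposited coordinates Psmb9 spans chr17:34181987-34187764 on the minus strand, Tap1 chr17:34187553-34197225, Psmb8 chr17:34197721-34201454 and Tap2 chr17:34203527-34216321, the last 3 on the plus strand. The deposited start of Psmb9 differs from the RefSeq one, and in the deposited coordinates Psmb9 and Tap1 overlap by 212 bases.

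H2-K1 encodes a classical heavy chain that presents peptides to CD8 T cells (chr17:33996017-34000347, minus strand). Its level was 216, 202 and 218 FPKM in WT and 198, 202 and 189 FPKM in KO. The highest KO library, at 202.3 FPKM, lay just above the lowest WT library, at 201.9 FPKM. H2-K1 fell 1.12-fold, a log2 fold change of -0.16 ± 0.05 (SE; edgeR adjusted p = 0.0148). Its call ended without WT replicate 3 (edgeR adjusted p = 0.0658) and without KO replicate 3 (edgeR adjusted p = 0.0620).

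H2-D1, the other classical heavy chain (chr17:35262730-35267499, plus strand), was the more abundant one. It was measured at 765, 716 and 756 FPKM in WT and at 759, 768 and 738 FPKM in KO, and the groups overlapped. The log2 fold change was -0.04 with a 95% interval from -0.12 to 0.05 (edgeR adjusted p = 0.500). The ratio of H2-K1 to H2-D1 FPKM, which needs no scaling between libraries, was 0.284 ± 0.00363 in WT and 0.261 ± 0.00339 in KO (SD, n = 3). Its 3 KO values lay below its 3 WT values.

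H2-T23 encodes Qa-1, a nonclassical heavy chain that is read by NKG2 receptors of natural killer cells (chr17:36029773-36032855, minus strand). Its level was 47.7, 42.1 and 44.2 FPKM in WT and 40.1, 41.2 and 38.0 FPKM in KO. All KO libraries lay below all WT libraries. H2-T23 fell 1.17-fold (log2 fold change -0.22 ± 0.05, SE; edgeR adjusted p = 0.00642).

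Class I heavy chains resemble each other, so the share of each transcript that another annotated gene repeats was counted in stretches of 75 bases. It was 1.33% for H2-K1, 6.90% for H2-D1 and 7.01% for H2-T23, and 0% for B2m, Tap1, Tap2, Nlrc5, Psmb8 and Psmb9. When 17 heavy chain genes were summed to one value, the sum was 3329, 3096 and 3305 CPM (counts scaled to the library size by TMM) in WT and 3145, 3104 and 2974 in KO. The groups overlapped through WT replicate 2, with a log2 fold change of -0.08 and a 95% interval from -0.16 to 0.01 (edgeR adjusted p = 0.136). H2-D1 alone made up 66.5 to 68.8% of the sum.

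B2m encodes beta-2 microglobulin, the light chain that every class I heavy chain needs to reach the surface (chr2:122147686-122153083, plus strand). It was measured at 1126, 1003 and 1053 FPKM in WT and at 1055, 1027 and 1010.1 FPKM in KO. The groups overlapped, and the log2 fold change was -0.09 with a 95% interval from -0.20 to 0.01 (edgeR adjusted p = 0.138). B2m lies within Patl2 on the other strand, which was measured at 0.221 FPKM in WT and 0.222 FPKM in KO.

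Tap1 and Tap2 encode the paired chains of the peptide transporter. Tap1 was measured at 8.83, 8.96 and 9.01 FPKM in WT and at 8.29, 9.29 and 8.10 FPKM in KO, with KO replicate 2 above all WT libraries. Its log2 fold change was -0.12 with a 95% interval from -0.24 to 0.01 (edgeR adjusted p = 0.127). Without KO replicate 2 it was -0.17 (edgeR adjusted p = 0.0281).

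Tap2 was measured at 12.1, 13.1 and 12.7 FPKM in WT and at 10.2, 12.6 and 9.84 FPKM in KO. KO replicate 2 was again the high library and lay within the WT range. Tap2 fell 1.20-fold (log2 fold change -0.27 ± 0.08, SE; edgeR adjusted p = 0.0220). The call ended when WT replicate 2, WT replicate 3, KO replicate 1 or KO replicate 3 was left out, with edgeR adjusted p of 0.0683, 0.0555, 0.0820 and 0.0950. The ratio of Tap1 to Tap2 FPKM was 0.708 ± 0.0222 in WT and 0.790 ± 0.0479 in KO (SD, n = 3).

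Tapbp encodes tapasin, which holds the empty class I molecule at the transporter (chr17:33915899-33926197, plus strand). Its level was 67.2, 60.3 and 63.1 FPKM in WT and 64.1, 69.3 and 62.4 FPKM in KO. The groups overlapped, with a log2 fold change of -0.02 and a 95% interval from -0.13 to 0.10 (edgeR adjusted p = 0.846). Its deposited span overlaps that of Zbtb22 on the same strand by 3422 bases, so the split of reads between them is uncertain.

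Psmb8 showed the largest fall among the 10 genes in the edgeR test without an offset, and Nlrc5 the larger one with it (-0.29 against -0.24 on the log2 scale). Psmb8 encodes LMP7 (beta5i), an immunoproteasome subunit that takes the place of the constitutive subunit encoded by Psmb5. Its level was 18.2, 17.0 and 18.7 FPKM in WT and 13.8, 15.1 and 14.0 FPKM in KO, so all KO libraries lay below all WT libraries. Psmb8 fell 1.31-fold (log2 fold change -0.38 ± 0.05, SE; edgeR adjusted p = 0.000178) and passed the threshold under all 17 alternatives run. Among the 4617 genes called, 1677 changed by at least as much, and the median size of a called change was 1.25-fold.

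Psmb9 encodes LMP2 (beta1i), which takes the place of the Psmb6 product. It was measured at 4.51, 4.49 and 4.66 FPKM in WT and at 3.82, 4.03 and 3.84 FPKM in KO, again with no overlap. Psmb9 fell 1.22-fold (log2 fold change -0.28 ± 0.07, SE; edgeR adjusted p = 0.00952). It overlaps Tap1 by 212 bases on the other strand, and the libraries mark strand, but whether the counting used it is not given. The ratio of Psmb9 to Tap1 FPKM was 0.51 ± 0.00846 in WT and 0.456 ± 0.0204 in KO (SD, n = 3).

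Nlrc5, the NLR protein that switches on class I genes through the SXY module, spans chr8:94434356-94527272 on the plus strand. Its level was 4.11, 3.34 and 4.24 FPKM in WT and 3.45, 3.79 and 3.57 FPKM in KO. WT replicate 2 was the lowest of all 6 libraries, and the groups overlapped. The log2 fold change was -0.17 with a 95% interval from -0.36 to 0.02 (edgeR adjusted p = 0.146). Without WT replicate 2 it was -0.27 (edgeR adjusted p = 0.0132).

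**Figure D2:**
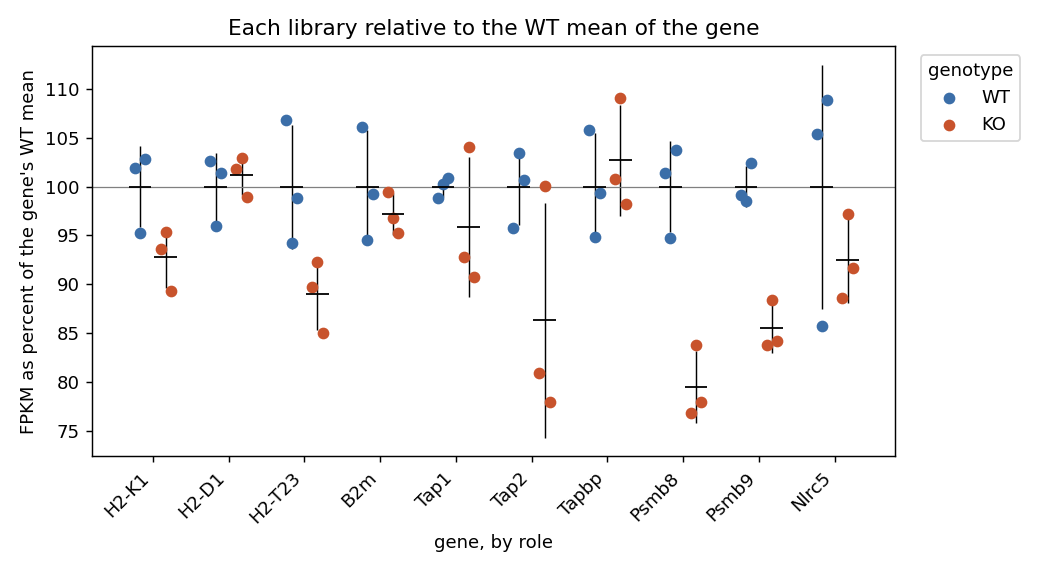
FPKM of each library as percent of the gene's WT mean, by role. Points are libraries, short bars are group means and vertical lines are SD. All KO points lie below all WT points for H2-T23, Psmb8 and Psmb9.

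H2-T23, Psmb8 and Psmb9 were the 3 of 10 genes whose FPKM was lower in every KO library than in every WT library, and no gene showed the reverse. Among all tested genes 19.1% had every KO value below every WT value and 32.4% had every KO value above. With limma on log2(FPKM + 1), 2 of the 10 genes were called lower (Psmb8 and Psmb9) and 0 higher, against 13.7% and 23.7% of all tested genes. The adjusted p in limma was 0.00502 for Psmb8 and 0.0152 for Psmb9.

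Fold changes in these libraries followed transcript length. The shortest 10% of tested genes had a median log2 fold change of -0.32 and the longest 10% one of 0.20. The 10 genes range from 860 bases for B2m to 7578 bases for Nlrc5. With each library's trend on length and GC content entered as an offset in edgeR, 4 of the 10 genes were called lower and 2 higher, against 14.8% and 16.6% of all tested genes. Psmb8 (log2 fold change -0.24, edgeR adjusted p = 0.00282), Psmb9 (-0.20, 0.0430) and Tap2 (-0.22, 0.0230) were called lower with and without the offset. Nlrc5 was called lower with the offset alone (-0.29, edgeR adjusted p = 0.0266). H2-D1 (0.09, edgeR adjusted p = 0.0345) and B2m (0.11, 0.0306) changed direction and were called higher. The calls for H2-K1 (-0.01, edgeR adjusted p = 0.898) and H2-T23 (-0.13, 0.0544) ended, and that for H2-T23 returned when the offset was joined by a replicate block (-0.13, edgeR adjusted p = 0.0321). The part of length and GC content in the differences was not tested.

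**Figure D3:**
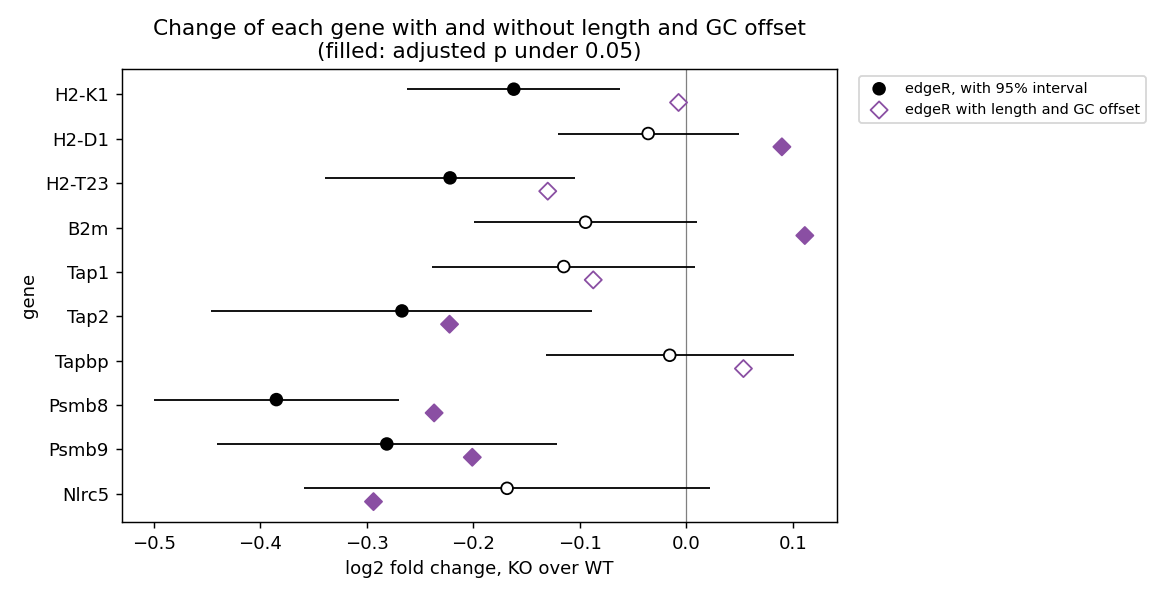
Log2 fold change (KO over WT) of each gene in edgeR, with its 95% interval (circles), and with an offset for transcript length and GC content (diamonds). Filled symbols have an adjusted p under 0.05. Psmb8, Psmb9 and Tap2 lie left of 0 and are filled in both fits, while H2-D1 and B2m move to the right of 0.

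Across the 6 libraries, the correlation of each gene's log2 CPM with the mean of the other 9 ranged from 0.57 for Tapbp to 0.97 for H2-K1 (Pearson r, a description over 6 libraries that share their scaling). The pair with the highest correlation was Psmb8 and Psmb9 (0.991), followed by Tap1 and Tap2 (0.984). Tapbp and Psmb9 had the lowest (0.225). Outside the 10 genes, the ranking was limited to tested protein-coding genes and left out mitochondrial genes and placeholder or pseudogene-style names. In it, Ptges (0.987), which encodes prostaglandin E synthase, Rhod (0.987) and Bud23 (0.981) were most like the mean of the 10 genes. The MHC class II gene H2-Eb1 (0.98) and Pigyl (0.979) came next.

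All 3 constitutive catalytic subunits fell, and so did Psmb10, which encodes the remaining inducible subunit (MECL-1). Of all tested genes, 19.4% were called lower. Psmb6 fell from 36.4 ± 1.01 to 27.5 ± 0.719 FPKM (SD, n = 3), a log2 fold change of -0.46 (edgeR adjusted p = 2.42e-05). Psmb7 fell from 15.8 ± 0.399 to 13.0 ± 1.45 FPKM (-0.34, edgeR adjusted p = 0.00411). Psmb10 fell from 19.8 ± 0.692 to 17.5 ± 0.400 FPKM (-0.24, edgeR adjusted p = 0.00931), but not with the length and GC offset (-0.00, edgeR adjusted p = 0.964). The offset also ended the call for Psmb6 (-0.12, edgeR adjusted p = 0.0535).

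Psmb5 fell from 56.6 ± 2.17 to 31.2 ± 0.815 FPKM, or by 0.91 on the log2 scale (edgeR adjusted p = 7.25e-07). With the offset its log2 fold change was -0.58. However, 40.0% of the 75-base stretches of Psmb5 are repeated elsewhere, mainly in the processed pseudogene Gm3375, looked at after its values were seen. Gm3375 rose from 1.59 ± 0.0845 to 12.8 ± 1.32 FPKM (edgeR adjusted p = 1.29e-07). The sum of both was 58.2 ± 2.23 FPKM in WT and 43.99 ± 2.13 FPKM in KO. The split of reads between them is uncertain.

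The ratio of Psmb8 to Psmb5 FPKM was 0.331, 0.289 and 0.336 in WT and 0.443, 0.497 and 0.439 in KO, so it was higher in every KO library. The log2 difference was 0.53 (exact two-sided permutation test p = 0.1, adjusted 0.15 over 3 ratios), and 0.1 is the smallest p that 3 against 3 libraries allow. With Gm3375 added to Psmb5 the ratio was 0.323, 0.281 and 0.326 in WT and 0.312, 0.361 and 0.305 in KO, and the groups overlapped (log2 difference 0.07, exact permutation p = 0.6). The ratio of Psmb9 to Psmb6 was 0.124, 0.127 and 0.125 in WT and 0.138, 0.143 and 0.143 in KO (log2 difference 0.18, exact permutation p = 0.1, adjusted 0.15). With the length and GC offset this difference turned to -0.08, and it was 0.35 for Psmb8 to Psmb5, with no test. The ratio of Psmb10 to Psmb7 was 1.25 ± 0.0220 in WT and 1.36 ± 0.146 in KO (SD, n = 3; log2 difference 0.11, exact permutation p = 0.3, adjusted 0.3), and its difference was 0.40 with the offset.

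**Figure D4:**
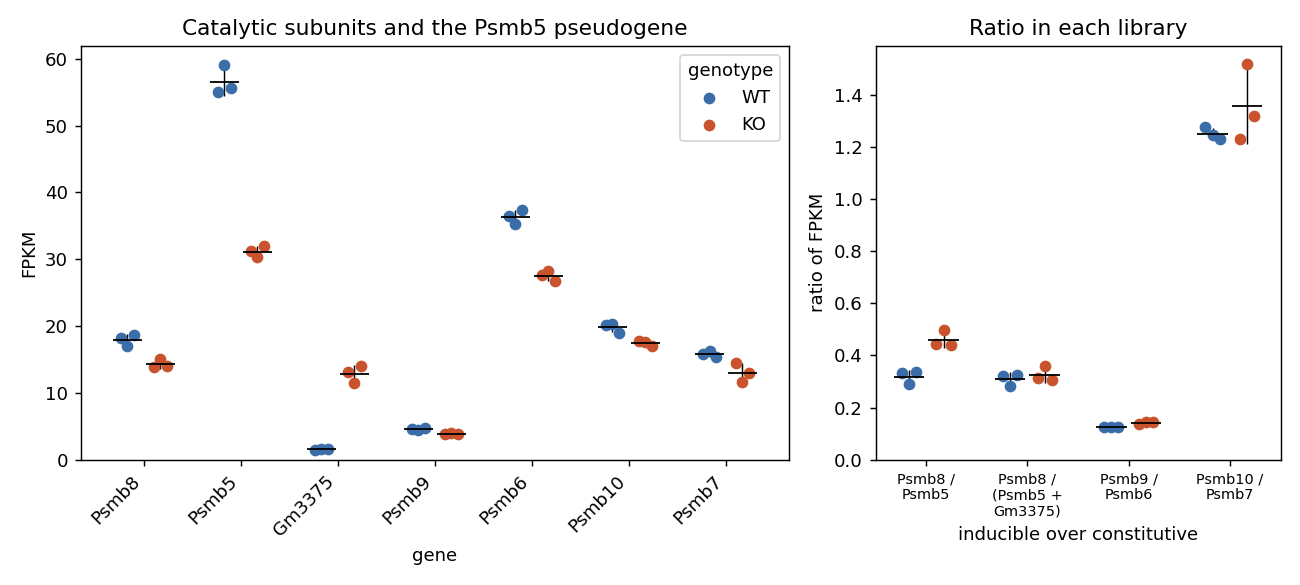
FPKM of the inducible and constitutive catalytic subunits and of the Psmb5 pseudogene Gm3375 (left), and the FPKM ratio of inducible to constitutive subunit in each library (right). Points are libraries, short bars are means and vertical lines are SD. The Psmb8 ratio is higher in KO against Psmb5 alone, and the groups overlap once Gm3375 is added.

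Among Psmb10 and the proteasome activator and assembly genes, 1 of 6 rose and 5 fell (median -0.22 on the log2 scale). The shares of all tested genes called higher and lower were 20.3% and 19.4%. Psme4, which encodes the PA200 activator, rose from 16.6 ± 0.164 to 21.4 ± 0.569 FPKM (SD, n = 3), a log2 fold change of 0.32 (edgeR adjusted p = 0.000166). Pomp, the proteasome assembly factor, fell from 11.1 ± 0.932 to 8.58 ± 0.472 FPKM (-0.43, edgeR adjusted p = 0.000388). Psme1 and Psme2, the interferon-inducible PA28 subunits, fell (-0.25 and -0.21, edgeR adjusted p = 0.0012 and 0.0178), as did Psme3 (-0.13, 0.0348). Psme2 repeats 51.7% of its stretches elsewhere, so its value is uncertain. Only Psme4 (0.12, edgeR adjusted p = 0.0234) and Pomp (-0.44, 0.000355) were called with the length and GC offset.

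In the endoplasmic reticulum list, 5 of 11 tested genes fell and 6 were not called (median -0.16 on the log2 scale). The share called lower among all tested genes was 19.4%. Calr, the chaperone calreticulin of the loading complex, fell from 414 ± 10.5 to 322 ± 12.8 FPKM (SD, n = 3), a log2 fold change of -0.42 (edgeR adjusted p = 1.40e-05). Pdia3, the disulfide isomerase ERp57 bound to tapasin, fell by 0.16 on the log2 scale (edgeR adjusted p = 0.00614). The chaperone Hspa5 (BiP) and the translocon subunits Sec61g and Sec61b fell as well, by 0.28, 1.13 and 0.38 on the log2 scale, and the Sec61b call ended with the offset (edgeR adjusted p = 0.853).

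Of the other class I heavy chains and class I-like chains, 2 of 14 tested genes rose and 4 fell. At the same threshold 20.3% of all tested genes rose and 19.4% fell. Fcgrt, the neonatal Fc receptor chain that pairs with beta-2 microglobulin, rose from 67.9 ± 1.42 to 92.7 ± 4.30 FPKM (SD, n = 3), a log2 fold change of 0.40 (edgeR adjusted p = 5.12e-05). Hfe, a class I-like regulator of iron uptake, rose 1.12-fold (log2 fold change 0.16, edgeR adjusted p = 0.00834). H2-M3, which presents formylated peptides, fell from 14.6 ± 0.670 to 12.0 ± 0.919 FPKM (-0.34, edgeR adjusted p = 0.00681). H2-Q5, H2-Q1 and H2-T10 fell too (-0.92, -0.24 and -0.47, edgeR adjusted p = 0.00462, 0.0463 and 0.047). With the offset, Fcgrt, Hfe and H2-Q5 remained called and the other 3 did not. H2-Q5 repeats 20.7% of its stretches in other genes.

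Among transcription factors of class I genes, 1 of 16 rose and 3 fell, against 20.3% and 19.4% of all tested genes. Their median was 0.00. The transcription factors that fell included Stat2 (log2 fold change -0.18, edgeR adjusted p = 0.0136) and Rfxank, an RFX subunit (-0.31, edgeR adjusted p = 0.0138). Creb1 rose from 4.09 ± 0.123 to 5.60 ± 0.110 FPKM (SD, n = 3), or by 0.40 on the log2 scale (edgeR adjusted p = 4.08e-05), but not with the offset (0.07, 0.229). Irf1 was 12.7 ± 1.15 FPKM in WT and 12.0 ± 0.535 FPKM in KO (edgeR adjusted p = 0.128), and Rfx5 was 3.47 ± 0.199 and 4.04 ± 0.192 FPKM (0.101).

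Of 8 interferon receptor, kinase and SOCS genes tested, 3 rose and 1 fell, against 20.3% and 19.4% of all tested genes. Ifngr1, a chain of the interferon-gamma receptor, rose from 65.1 ± 2.32 to 77.5 ± 3.15 FPKM (SD, n = 3), a log2 fold change of 0.20 (edgeR adjusted p = 0.00413). The kinases Jak1 (0.23, edgeR adjusted p = 0.0012) and Jak2 (0.14, 0.0417) rose, and the Jak2 call ended with the offset (0.827). With the offset Ifngr1 was 0.30 and Jak1 0.15 on the log2 scale. Socs3, a feedback inhibitor of cytokine receptors, fell from 8.93 ± 0.343 to 7.08 ± 0.652 FPKM (-0.39, edgeR adjusted p = 0.00185).

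For comparison with the next 3 lists, 20.3% of all tested genes were called higher and 19.4% lower. Of 9 cytosolic peptidases tested, Tpp2 rose (log2 fold change 0.19, edgeR adjusted p = 0.0166). Prep and Lap3 fell (-0.29 and -0.25, edgeR adjusted p = 0.00345 and 0.00389). With the offset the Tpp2 value turned (-0.12, edgeR adjusted p = 0.0654), while Prep was -0.54 and Lap3 -0.17. Of 9 cross-presentation genes tested, 2 rose and 2 fell. Lnpep, the endosomal peptidase IRAP, rose from 11.2 ± 0.373 to 17.5 ± 1.22 FPKM (SD, n = 3; 0.59, edgeR adjusted p = 1.14e-05). Its log2 fold change was 0.21 with the offset (edgeR adjusted p = 0.000721). Wdfy4 rose (0.14, edgeR adjusted p = 0.0205), and Vamp8 and Stx4a fell (-0.21 and -0.17, edgeR adjusted p = 0.0207 and 0.0462). The offset ended these last 3 calls. Of 4 class I receptor genes of myeloid cells tested, Lilrb4a fell from 100.7 ± 2.42 to 95.8 ± 4.07 FPKM (-0.13, edgeR adjusted p = 0.0275, and -0.23 with the offset).

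**Figure D5:**
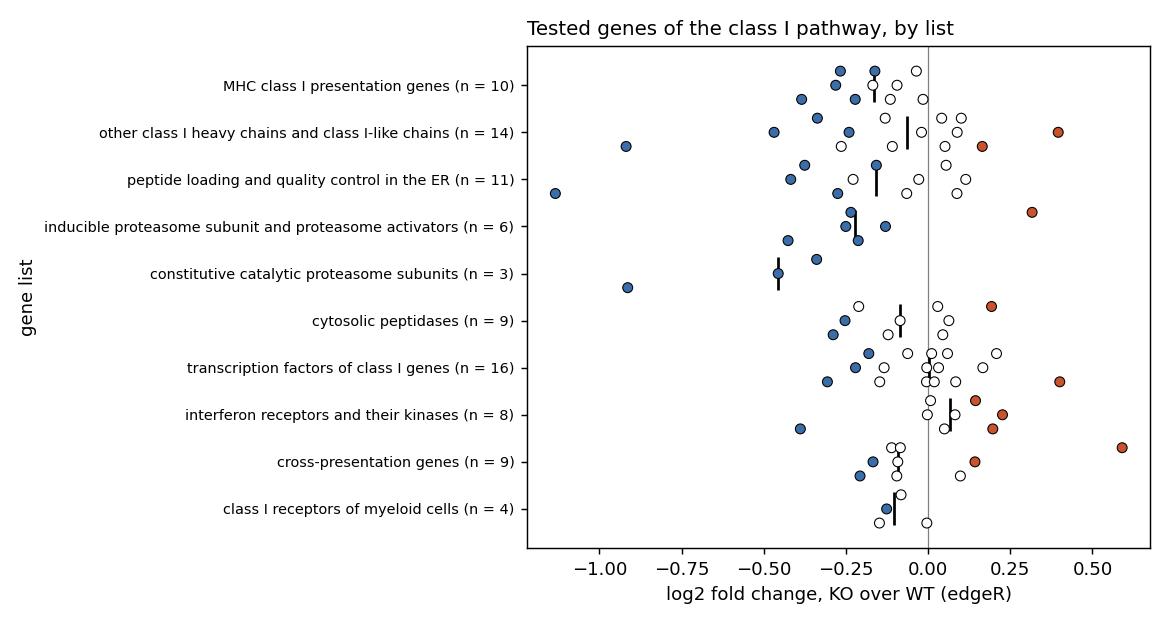
Log2 fold change (KO over WT, edgeR) of every tested gene of the 10 class I pathway lists. Blue and red points are genes called lower and higher, open points were not called, and black ticks are list medians. The medians run from -0.46 for the constitutive catalytic subunits to 0.07 for interferon receptors and kinases.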

How the data were processed

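RNA-seq of M-CSF-treated bone marrow macrophages (3 WT, 3 KO) was taken from the deposited gene table, which gives FPKM and a whole-number estimated count per library, both made by the authors. Per the labels' protocols, mRNA was selected with oligo(dT) and the second strand was marked with dUTP. Tools named in the submitters' processing notes, with no role or order, are StringTie 1.3.4d, HISAT2 2.0.4 and cutadapt 1.9. The genome build and the use of strand in counting are not given in the sources used here. Deposited counts of 4 and 8 were found 5769 and 2692 times, more often than 3 (3204), 5 (2041), 7 (1689) or 9 (1204). A count of 2 was found 4173 times. It was assumed that about 4 estimated counts stood for 1 fragment. On that scale, with counts divided by 4, replicates differed by more than counting error (chi-square over its degrees of freedom, 3.65 to 7.44). This gives no sign of a library deposited more than once.

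KO was compared with WT by edgeR 4.0.16 (R 4.3.3; quasi-likelihood test, TMM scaling, two-sided) on the estimated counts of the 11636 genes whose mean reached 1 FPKM, with Benjamini-Hochberg adjustment and a threshold of 0.05. This called 2364 genes higher and 2253 lower. Counts behind the scarcest genes ran from 954 for Psmb9 upward, and the totals limit the precision. Alternatives were limma 3.58.1 on log2(FPKM + 1) or log2(FPKM + 0.1), DESeq2 1.42.0, other filters and scalings, a replicate block, a length and GC offset (loess, span 0.3, longest GENCODE M21 transcript), and each library left out. The main design had no block, and deviations of same-numbered libraries had correlations from -0.056 to 0.056. Subunit ratios were compared by an exact permutation test (scipy 1.17.1). Scripts were tested on simulated data. Upstream sequences are from RefSeq (GRCm38.p6), and 8 of the 10 genes matched. Coordinates are those of the deposited table, and 9 of the 10 genes had identical ones in GENCODE M21.

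Named genes are all 10 genes and, of each other list, those past the threshold, with Pebp1, Irf1, Rfx5 and the proteasome subunits always named. The values of 1 gene of the transcription factor list are not reported here. The genes and lists were chosen with earlier results of these data known.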

Additional observations from a re-analysis of the deposited data

How the results depend on the processing

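Psmb8 passed the threshold under every alternative run and Psmb9 under all but the length and GC offset with the replicate block (edgeR adjusted p = 0.0611), where H2-T23 was called (0.0321). The number of the 10 genes called lower (5) was 2 with limma on log2(FPKM + 1), 2 with log2(FPKM + 0.1) and 2 with no filter on low values, and so was the number called in all. Both ran from 3 to 6 when 1 library was left out: 3 without WT replicate 3 and 3 without KO replicate 3, against 6 without KO replicate 2. The number called higher (0) was 2 with the offset and 2 with the offset and the replicate block. Besides the offset and the libraries already given, H2-K1 (adjusted p = 0.143 in limma, 0.0901 in edgeR without the filter), H2-T23 (0.0707 and 0.0558) and Tap2 (0.115 and 0.140) lost their calls in those fits. Over all genes, limma on log2(FPKM + 0.1) called 1500 lower.

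H2-D1 changed sign with limma (0.0182 with both pseudocounts), with the offset (0.0897) and with the offset and block (0.0901). B2m did so with the offset (0.11) and with the offset and block (0.11). Tapbp did so with limma (0.0378 and 0.0384), no filter (0.00518), the offset (0.0536) and the offset with block (0.0552), and ran from -0.0547 to 0.0260 with 1 library left out. The summed heavy chains passed with library totals alone (-0.11, edgeR adjusted p = 0.0473) and changed sign with the offset (0.0481) and the offset with block (0.0487). In the offset fits the sum was given the transcript length and GC content of H2-D1 alone. The Psmb9 to Psmb6 difference changed sign with the offset (-0.0815). The cause was not tested.

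With the replicate number as a block in edgeR, 2407 genes were called higher and 2294 lower, and the same number of the 10 genes, 5, were called lower. Same-numbered libraries had correlations of deviations of 0.024, 0.056 and -0.056, and other-numbered ones ran from -0.11 to 0.096. With 3 libraries a group this cannot exclude a pairing, and the labels do not give one. Counts divided by 4 and the sum of Psmb5 with Gm3375 were added after seeing the data, as was the offset for the subunit ratios. With the summed pair the Psmb8 to Psmb5 difference fell to 0.07. The precision of 3 libraries a group is given by the intervals beside the values.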
